A study of Mus musculus with 12 samples.

Results

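The Hox genes encode homeodomain transcription factors that lie side by side in the Hoxa, Hoxb, Hoxc and Hoxd clusters. All protein-coding genes of the mm10 annotation (RefSeq table of GRCm38.p6) with such a symbol and a number were taken, which gave 39 genes out of 21883 coding genes. They were 11 Hoxa, 10 Hoxb, 9 Hoxc and 9 Hoxd genes. A peak belonged to a cluster when its summit lay within 10 kb of the span of a member, and each peak was counted once per cluster.

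The study mapped the progesterone receptor (PR) and estrogen receptor alpha (ERα) on chromatin of whole mouse mammary glands by ChIP-seq, in which an antibody pulls down the DNA bound by a protein. The groups were PR in Y541S glands, PR in WT glands, ERα in Y541S glands and ERα in WT glands, with 2 biological replicates each and therefore 8 libraries. Y541S exchanges tyrosine for serine in the hormone-binding part of ERα (gene Esr1), at the mouse position of an activating mutation of human breast cancer, and WT has the normal receptor. Mice of both genotypes were kept to 8 weeks of age, received implants of E2 (estradiol) and P4 (progesterone), and gave tissue 4 days later. All groups therefore share the hormone treatment, and no value here compares hormone with no hormone. The 4 samples with the D542G substitution were not analysed here. Strain, zygosity, sex and animals per replicate are not given in the sources used here, and nothing says that replicates came from separate animals, so p-values measure only the spread between these libraries.

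Hox proteins set position along the body axis, and each cluster runs from genes for anterior levels (low numbers) to genes for posterior levels (high numbers). Genes with the same number in different clusters are paralogs. In adult tissues Hox genes keep regional expression, and in the mouse mammary gland the paralogs numbered 9 are known to be needed for growth during pregnancy. Polycomb proteins keep Hox chromatin silent where the genes are off, trithorax proteins keep it active, and many Hox proteins bind DNA with the TALE cofactors Pbx and Meis.

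The deposited lists held 113695 and 101382 peaks for PR in Y541S glands (replicates 1 and 2) and 82982 and 93491 for PR in WT glands. The ERα lists held 106926 and 105612 peaks in Y541S glands and 72566 and 64488 in WT glands. Each list went down to a −log10 p of about 2, so many entries are weak. The recovered background coverage, a stand-in for depth, was between 0.927 and 2.68 reads per position and was higher in replicate 1 than in replicate 2 of every group. The lists come from whole glands, although the series title speaks of luminal cells. A peak cannot be assigned to a cell type, and fewer receptor-bearing cells and less binding per cell cannot be told apart. A PR region in all 4 libraries lay within 10 kb of 7 of 7 markers of hormone-sensing luminal cells, 3 of 5 basal, 2 of 4 adipocyte, 1 of 4 immune and 3 of 3 endothelial markers, beside 63.6% of all coding genes. An ERα region in all 4 lay near 3 of 7 luminal, 2 of 5 basal, 4 of 4 adipocyte, 1 of 4 immune and 1 of 3 endothelial markers, beside 57.5%. Every marker of these lists had a peak of each receptor in at least 1 library, beside 83.4% of coding genes for PR and 84.6% for ERα. These counts describe peaks near genes and not expression.

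By the number of libraries with a peak, weak ones included, the most repeatable places in the Hox clusters lay at the start of Hoxa5 and beside Hoxa9. Peaks of all 8 libraries were merged where they overlapped by at least 1 bp, which gave 147 Hox regions. Of these, 2 held a peak in all 8 libraries (1.36%), against 3.76% of all merged regions of the genome. The first covered the start of Hoxa5, a gene with roles in lung and mammary gland (chr6:52204131-52204870), and the second lay 1.38 kb beyond the Hoxa9 span, between Hoxa9 and Hoxa7 (chr6:52221367-52222151). A further 6 regions held a peak in 6 libraries (4.08%, beside 3.12% of all merged regions) and 7 in 5 libraries (4.76%, beside 4.22%). A peak in 1 library was found at 86 (58.5%, beside 60.6%).

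At Hoxa5 the PR peak had a fold enrichment over local expectation of 5.05 and 5.04 in Y541S glands, against 3.34 and 6.05 in WT glands. The ERα peak there had a fold of 4.39 and 3.75 in Y541S glands, against 4.03 and 4.28 in WT glands. The genotypes overlapped for both receptors. These folds are the authors' values for single peaks and are not scaled between libraries. Summit coverage at this peak was 18, 12, 12 and 14 reads for PR (Y541S replicates 1 and 2, then WT replicates 1 and 2) and 15, 13, 18 and 12 for ERα. The −log10 p of the PR peak was 9.84 and 7.85 in Y541S glands, against 4.95 and 10.16 in WT glands. WT replicate 1 thus had the lowest PR fold and −log10 p at Hoxa5. Near Hoxa9, one of the mammary paralogs, the PR fold was 3.93 and 5.87 in Y541S glands, against 2.89 and 2.65 in WT glands. Both Y541S values for PR exceeded both WT values there, an order found at 53.3% of all PR regions with a peak in all 4 libraries. The ERα fold near Hoxa9 was 3.28 and 5.17 in Y541S glands, against 2.75 and 3.80 in WT glands, with overlapping genotypes.

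Promoter sequences are shown for the members whose promoter entry was overlapped by a PR and an ERα peak. RefSeq promoter entries (GRCm38.p6; 250 bases before to 50 after the gene start, 300 bases) matched 22 of the 39 members with 24 entries, and 17 members had no entry. A peak overlapped 9 of the 24 entries. All 9 carried an ERα peak (Hoxa2, Hoxa3, Hoxa5, Hoxb4, Hoxb8, Hoxd3, Hoxd8, Hoxd9 and Hoxd10), and 6 of them also a PR peak. Those 6 are printed 5′ to 3′ on the strand of the gene. Capitals mark AGGTCA or its reverse complement TGACCT, the repeat unit of an estrogen response element, which many other nuclear receptors also use.
Hoxa5: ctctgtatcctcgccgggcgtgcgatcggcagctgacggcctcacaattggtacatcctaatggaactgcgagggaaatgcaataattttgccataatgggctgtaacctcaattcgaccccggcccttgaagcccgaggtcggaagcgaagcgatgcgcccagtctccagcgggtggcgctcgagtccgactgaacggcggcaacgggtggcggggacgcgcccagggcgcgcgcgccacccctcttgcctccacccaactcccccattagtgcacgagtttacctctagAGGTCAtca
Hoxa2: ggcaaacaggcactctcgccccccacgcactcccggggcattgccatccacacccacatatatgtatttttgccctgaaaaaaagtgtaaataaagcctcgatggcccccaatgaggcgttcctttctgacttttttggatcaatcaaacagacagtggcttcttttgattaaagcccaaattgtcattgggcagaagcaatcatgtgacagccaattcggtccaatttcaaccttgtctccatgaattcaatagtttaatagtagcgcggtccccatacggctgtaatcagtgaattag
Hoxa3: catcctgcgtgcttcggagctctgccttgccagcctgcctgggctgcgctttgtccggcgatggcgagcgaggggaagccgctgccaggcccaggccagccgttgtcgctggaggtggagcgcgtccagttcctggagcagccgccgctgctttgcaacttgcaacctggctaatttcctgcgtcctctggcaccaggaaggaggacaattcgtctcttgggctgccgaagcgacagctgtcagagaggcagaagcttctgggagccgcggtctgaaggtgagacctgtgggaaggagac
Hoxb4: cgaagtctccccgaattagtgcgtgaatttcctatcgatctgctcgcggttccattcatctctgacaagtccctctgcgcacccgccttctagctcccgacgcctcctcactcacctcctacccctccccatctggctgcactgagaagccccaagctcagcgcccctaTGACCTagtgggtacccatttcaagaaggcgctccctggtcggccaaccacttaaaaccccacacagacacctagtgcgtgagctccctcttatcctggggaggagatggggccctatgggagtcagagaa
Hoxd8: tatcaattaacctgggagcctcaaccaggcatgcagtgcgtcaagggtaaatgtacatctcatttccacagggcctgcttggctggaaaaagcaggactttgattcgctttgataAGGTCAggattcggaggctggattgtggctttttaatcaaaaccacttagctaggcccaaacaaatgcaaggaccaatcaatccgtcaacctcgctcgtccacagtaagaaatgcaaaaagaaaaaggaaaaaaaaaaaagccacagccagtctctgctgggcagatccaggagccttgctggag
Hoxd10: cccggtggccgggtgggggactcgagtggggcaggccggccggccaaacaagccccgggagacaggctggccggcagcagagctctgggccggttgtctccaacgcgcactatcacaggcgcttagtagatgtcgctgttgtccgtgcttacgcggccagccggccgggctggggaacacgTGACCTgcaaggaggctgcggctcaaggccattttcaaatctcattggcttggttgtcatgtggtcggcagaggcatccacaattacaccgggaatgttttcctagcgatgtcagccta

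The positions are chr6:52204538-52204837 (minus strand) for Hoxa5, chr6:52164782-52165081 (minus) for Hoxa2 and chr6:52213018-52213317 (minus) for Hoxa3. They are chr11:96318017-96318316 (plus) for Hoxb4, chr2:74704365-74704664 (plus) for Hoxd8 and chr2:74691641-74691940 (plus) for Hoxd10. Of these 6 genes, Hoxa5 had a promoter peak in all 8 libraries. Hoxa3, Hoxd8 and Hoxd10 had one in 3 libraries each, and Hoxa2 and Hoxb4 in 2 each.

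In the Hoxa5 promoter the AGGTCA unit occupied bases 292 to 297 of the printed run, just past the gene start. It lay inside the called peak of all 8 libraries. The summits were 68.5 and 124 bp from its centre for PR in Y541S glands and 32.5 and 8.5 bp in WT glands. They were 34.5 and 41.5 bp away for ERα in Y541S glands and 31.5 and 48.5 bp in WT glands. The unit in the Hoxd10 promoter lay inside the peak of Y541S ERα replicate 2, with the summit 1.5 bp away, and inside the peak of WT PR replicate 2, 65.5 bp away. It lay outside the peak of WT ERα replicate 1, whose summit was 287.5 bp away. In the Hoxb4 promoter the unit lay outside the called peaks, and in the Hoxd8 promoter it lay inside the peak of Y541S PR replicate 2 only.

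AGGTCA was searched on both strands and was present in 7 of the 24 Hox entries (29.2%), against 16.3% of the 32851 promoter entries of the table. AGAACA, the repeat unit of a progesterone response element that glucocorticoid and androgen receptors share, was present in 2 of the 24 (8.33%), in Hoxa9 and Hoxa11, against 19.0% of all entries. The paired forms GGTCANNNTGACC and GNACANNNTGTNC occurred in 0 of the 24 Hox entries, against 0.0700% and 0.475% of all entries. No marked unit overlapped another. Hox entries had a median GC content of 57.7% and 14.5 CpG dinucleotides, against 52.7% and 7 in all entries. These matches describe letters in a window.

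Over the 4 clusters, PR had fewer peaks than ERα in relation to the length of its lists. PR had 26 and 41 Hox peaks in Y541S glands and 14 and 35 in WT glands. ERα had 50 and 57 Hox peaks in Y541S glands and 40 and 39 in WT glands. The counts of the receptors overlapped at 1 PR library, Y541S replicate 2, which exceeded both WT ERα libraries. The difference in means, PR minus ERα, was -17.5 peaks (exact two-sided permutation of receptor within genotype, p = 0.0556, the smallest that 36 arrangements allow). At a −log10 p of at least 5 it was -4.25 (exact permutation p = 0.444), and among the 20000 strongest peaks -5.75 (exact permutation p = 0.111). At the same replicate number, PR minus ERα was -24 and -16 in Y541S glands and -26 and -4 in WT glands.

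Per 100000 peaks of its list, PR had 22.9 and 40.4 Hox peaks in Y541S glands and 16.9 and 37.4 in WT glands. ERα had 46.8 and 54.0 in Y541S glands and 55.1 and 60.5 in WT glands. On this scale no PR library reached any ERα library, with a difference of -24.7 (exact permutation p = 0.0556). The density of peaks in the Hox windows, which cover 517.378 kb, was then set against the density in windows of 10 kb around all coding genes. The ratio was 0.814 and 1.44 for PR in Y541S glands and 0.589 and 1.298 for PR in WT glands. It was 1.68 and 1.96 for ERα in Y541S glands and 1.87 and 2.03 for ERα in WT glands. With all peaks of the lists counted, weak ones included, all 4 ERα libraries were denser in the Hox windows than around coding genes at large. Replicate 1 of PR was less dense in both genotypes. PR minus ERα was -0.85 on this ratio (exact permutation p = 0.0556). Replicate 1 also had the higher background coverage, and whether depth set these PR counts was not tested.

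**Figure D1:**
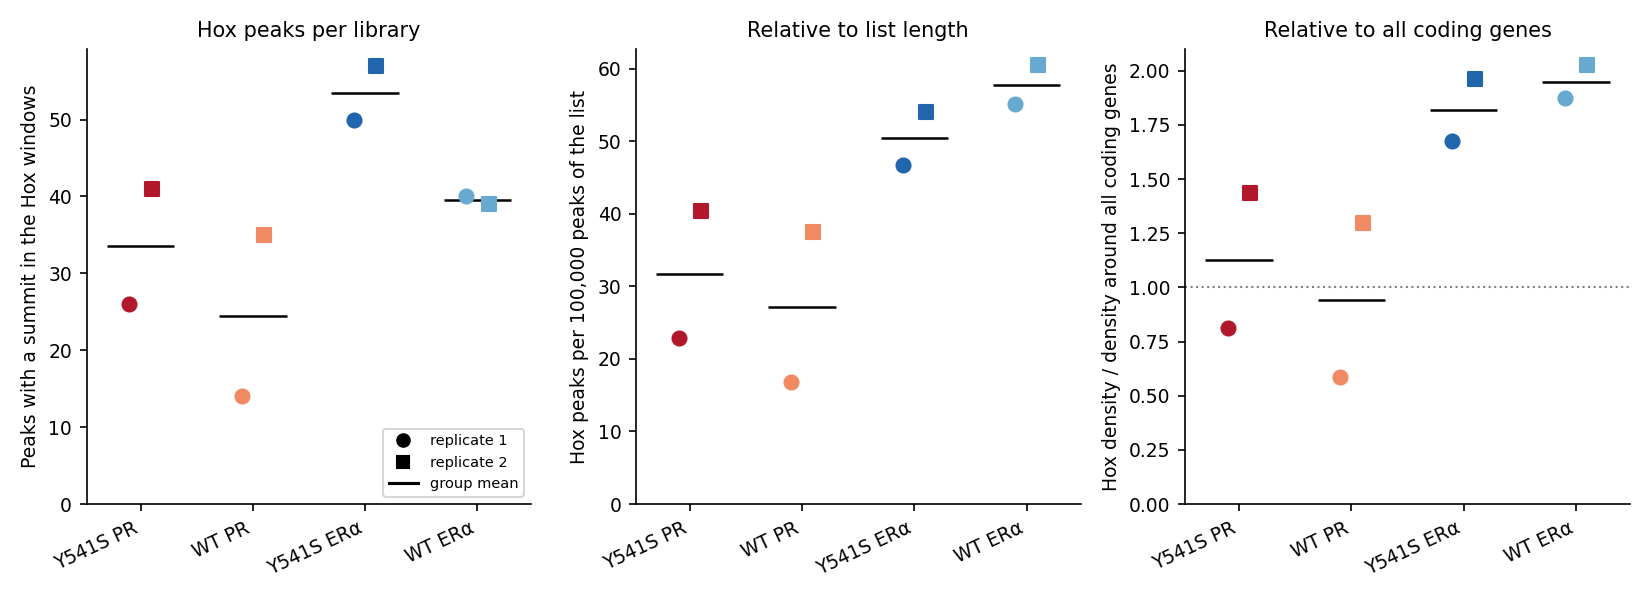
Hox peaks in each of the 8 libraries, by group from PR in Y541S glands to ERα in WT glands, as counts (left), per 100000 peaks of the list (middle) and as density in the Hox windows divided by density around all coding genes (right). Circles are replicate 1, squares replicate 2 and lines the group mean; in the middle and right panels every PR library lies below every ERα library.

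Hox peaks of PR stood deeper in their lists than those of ERα. Peaks of each list were ranked by −log10 p, with 0% the strongest. The median Hox peak of PR stood at 79.6% and 76.0% of the list in Y541S glands and at 67.6% and 69.5% in WT glands. For ERα it stood at 62.1% and 50.7% in Y541S glands and at 63.7% and 51.6% in WT glands. Every PR median was deeper in the list than every ERα median, by 16.2 percentage points on average (exact permutation p = 0.0556). The strongest 10% of a list held 1 and 0 Hox peaks of PR in Y541S glands and none in WT glands. It held 0 and 4 Hox peaks of ERα in Y541S glands and 0 and 1 in WT glands. At a −log10 p of at least 5 there remained 11 and 19 Hox peaks of PR in Y541S glands and 1 and 14 in WT glands. The same limit left 15 and 17 of ERα in Y541S glands and 14 and 16 in WT glands. Among the 20000 strongest peaks of each list, PR had 1 and 0 Hox peaks in Y541S glands and 0 and 1 in WT glands. ERα had 1 and 8 there in Y541S glands and 7 and 9 in WT glands.

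**Figure D2:**
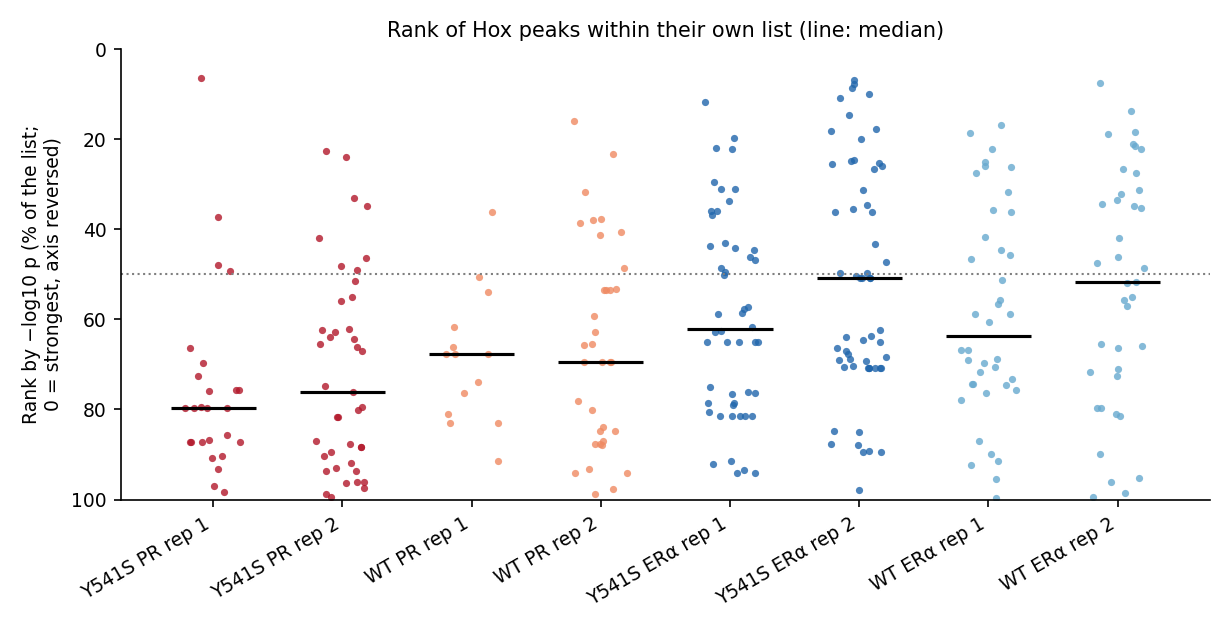
Rank of each Hox peak within its own list, as a percentage of the list with 0 the strongest (axis reversed), for the 8 libraries. Points are peaks and lines medians; the PR medians lie between 67.6% and 79.6% and the ERα medians between 50.7% and 63.7%.

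Y541S glands had more Hox peaks than WT glands on average for both receptors, and their lists were longer as well. With 2 libraries per group, no difference of any size could pass p = 0.05 in these permutation tests. For PR the means were 33.5 ± 10.6 peaks in Y541S glands and 24.5 ± 14.8 in WT glands (SD, n = 2 each; exact permutation p = 0.667, smallest possible 0.333). For ERα they were 53.5 ± 4.95 in Y541S glands and 39.5 ± 0.707 in WT glands (SD, n = 2 each; exact permutation p = 0.333, the smallest possible). Over both receptors Y541S exceeded WT by 11.5 peaks (exact permutation p = 0.111). Replicates of PR differed by more than the genotypes did. At the same replicate number, Y541S minus WT was 12 and 6 peaks for PR and 10 and 18 for ERα. Without WT PR replicate 1 the PR difference turned to -1.5 peaks.

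The ratio of Hox peaks, Y541S over WT, was 1.37 for PR and 1.35 for ERα, beside ratios of list lengths of 1.22 for PR and 1.55 for ERα. Per 100000 peaks, Y541S minus WT was 4.50 for PR (exact permutation p = 0.667) and -7.43 for ERα (exact permutation p = 0.333). The higher ERα count in Y541S glands was therefore turned round once list length was taken into account. Among the 20000 strongest peaks of each list, Y541S minus WT was 0 for PR and -3.5 for ERα. The genotype difference of PR minus that of ERα was -5 peaks, within the spread of the libraries (exact permutation p = 0.833).

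The 4 clusters differed in peak density, with Hoxa and Hoxb above Hoxc and Hoxd. Over the 8 libraries the density per 100 kb of window was 8.96 ± 3.35 in Hoxa, 8.80 ± 2.06 in Hoxb, 6.17 ± 3.10 in Hoxc and 5.02 ± 3.34 in Hoxd (SD, n = 8). All 6 pairs of clusters were compared within libraries by an exact two-sided sign-flip permutation test with Benjamini-Hochberg adjustment over the 6 pairs. Hoxa exceeded Hoxc by 2.79 and Hoxd by 3.94 peaks per 100 kb, each in 7 of 8 libraries. Hoxb exceeded Hoxc by 2.63 in 6 of 8 libraries and Hoxd by 3.77 in 8 of 8. The adjusted p was 0.0469 for each of these 4 pairs (exact sign-flip). Hoxa and Hoxb differed by 0.16 (SE 1.09; adjusted p = 0.883, exact), and Hoxc and Hoxd by 1.15 (SE 0.81; adjusted p = 0.253, exact).

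These 4 calls were near the threshold. Each lost it, at adjusted exact p-values of 0.0625 to 0.0938, when any of 6 libraries was left out, namely replicate 1 or 2 of PR in Y541S glands, replicate 1 of PR in WT glands, replicate 1 of ERα in Y541S glands, or replicate 1 or 2 of ERα in WT glands. Hoxb against Hoxc also lost it without replicate 2 of ERα in Y541S glands (adjusted p = 0.0938, exact). With any single library left out the 4 differences stayed between 2.29 and 4.72. When only summits inside a gene span were counted, Hoxa minus Hoxb became -2.66 per 100 kb, and the Hoxa calls were lost. PR and ERα libraries of a replicate may share chromatin, which the labels do not say, and the 8 libraries would then not be independent.

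In the Hoxd cluster ERα had the larger counts in both genotypes. PR had 2 and 6 peaks there in Y541S glands and 1 and 3 in WT glands. ERα had 8 and 13 peaks there in Y541S glands and 8 and 6 in WT glands. The counts met only at 6, and PR minus ERα was -5.75 peaks (exact permutation p = 0.0556, the smallest possible). In Hoxc, PR had 5 and 10 peaks in Y541S glands and 1 and 11 in WT glands, and ERα had 12 and 14 in Y541S glands and 7 and 7 in WT glands. Both Y541S ERα libraries exceeded both WT ones in Hoxc (exact permutation p = 0.333, the smallest possible). The same order of ERα counts was found at 24.4% of coding genes, and both Y541S ERα lists were longer than both WT lists. That share is for single genes with fewer peaks each, so it is not a like measure for the total of a cluster. In Hoxb, PR had 12 and 12 peaks in Y541S glands and 8 and 10 in WT glands, and ERα had 12 and 18 in Y541S glands and 13 and 13 in WT glands. In Hoxa, PR had 7 and 13 peaks in Y541S glands and 4 and 11 in WT glands, and ERα had 18 and 12 in Y541S glands and 12 and 13 in WT glands.

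**Figure D3:**
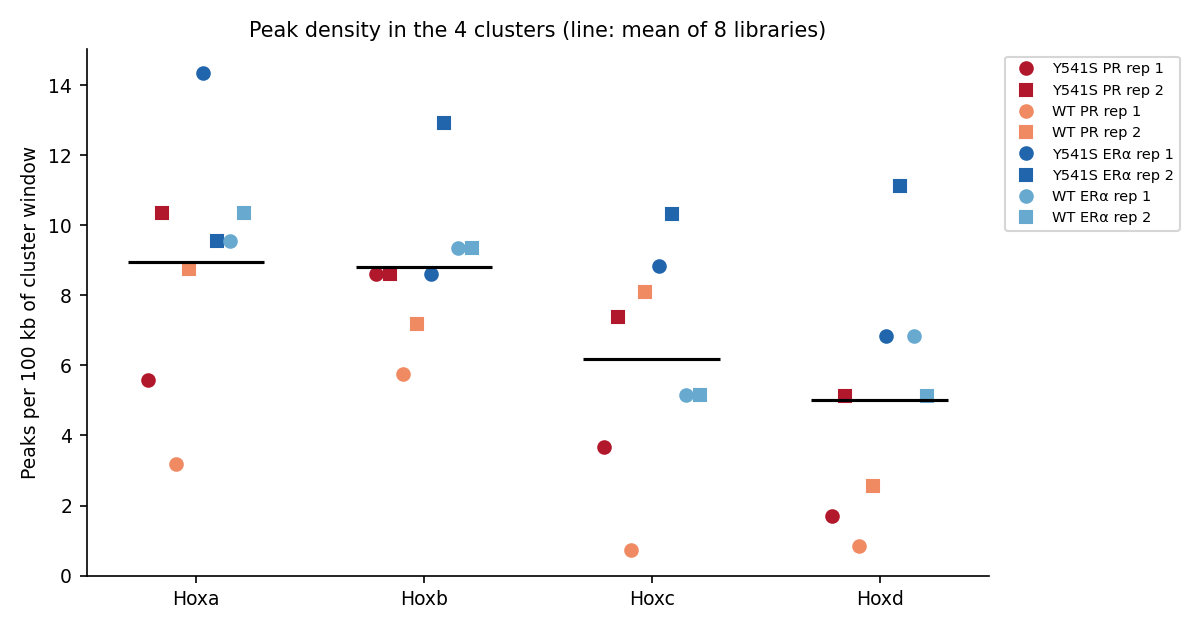
Peaks per 100 kb of cluster window in the 8 libraries for the 4 clusters; red and orange are PR, dark and light blue ERα, circles replicate 1 and squares replicate 2. Lines are means over the 8 libraries, from 8.96 in Hoxa to 5.02 in Hoxd.

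With the 4 clusters pooled, posterior genes had the lowest peak density for both receptors. Within 1 kb of the 8 genes numbered 1 to 3, PR had a median of 7.93 peaks per 100 kb over its 4 libraries (range 3.97 to 11.9) and ERα 12.6 (9.26 to 13.2). At the 15 genes numbered 4 to 8, PR had 9.37 (2.68 to 13.4) and ERα 12.9 (11.6 to 15.2). At the 16 genes numbered 9 to 13, PR had 2.87 (0.956 to 6.69) and ERα 7.65 (6.69 to 11.5). The posterior value was the lowest of the 3 in all 4 PR and all 4 ERα libraries. The groups 1 to 3 and 4 to 8 shared peaks, since the spans of Hoxa3, Hoxb3 and Hoxd3 contain Hoxa4 to Hoxa6, Hoxb4 and Hoxd4. Hoxc has no gene numbered 1 to 3, so the 3 groups also differ in their mix of clusters. Densities by gene number inside single clusters were not computed, and whether the order holds in each cluster was not tested. Between 28.6% and 40.4% of the Hox peaks of a library lay within 1 kb of the edge of a member, which takes 28.8% of the window, and 50% to 70.7% lay inside a span, which takes 53.8%.

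**Figure D4:**
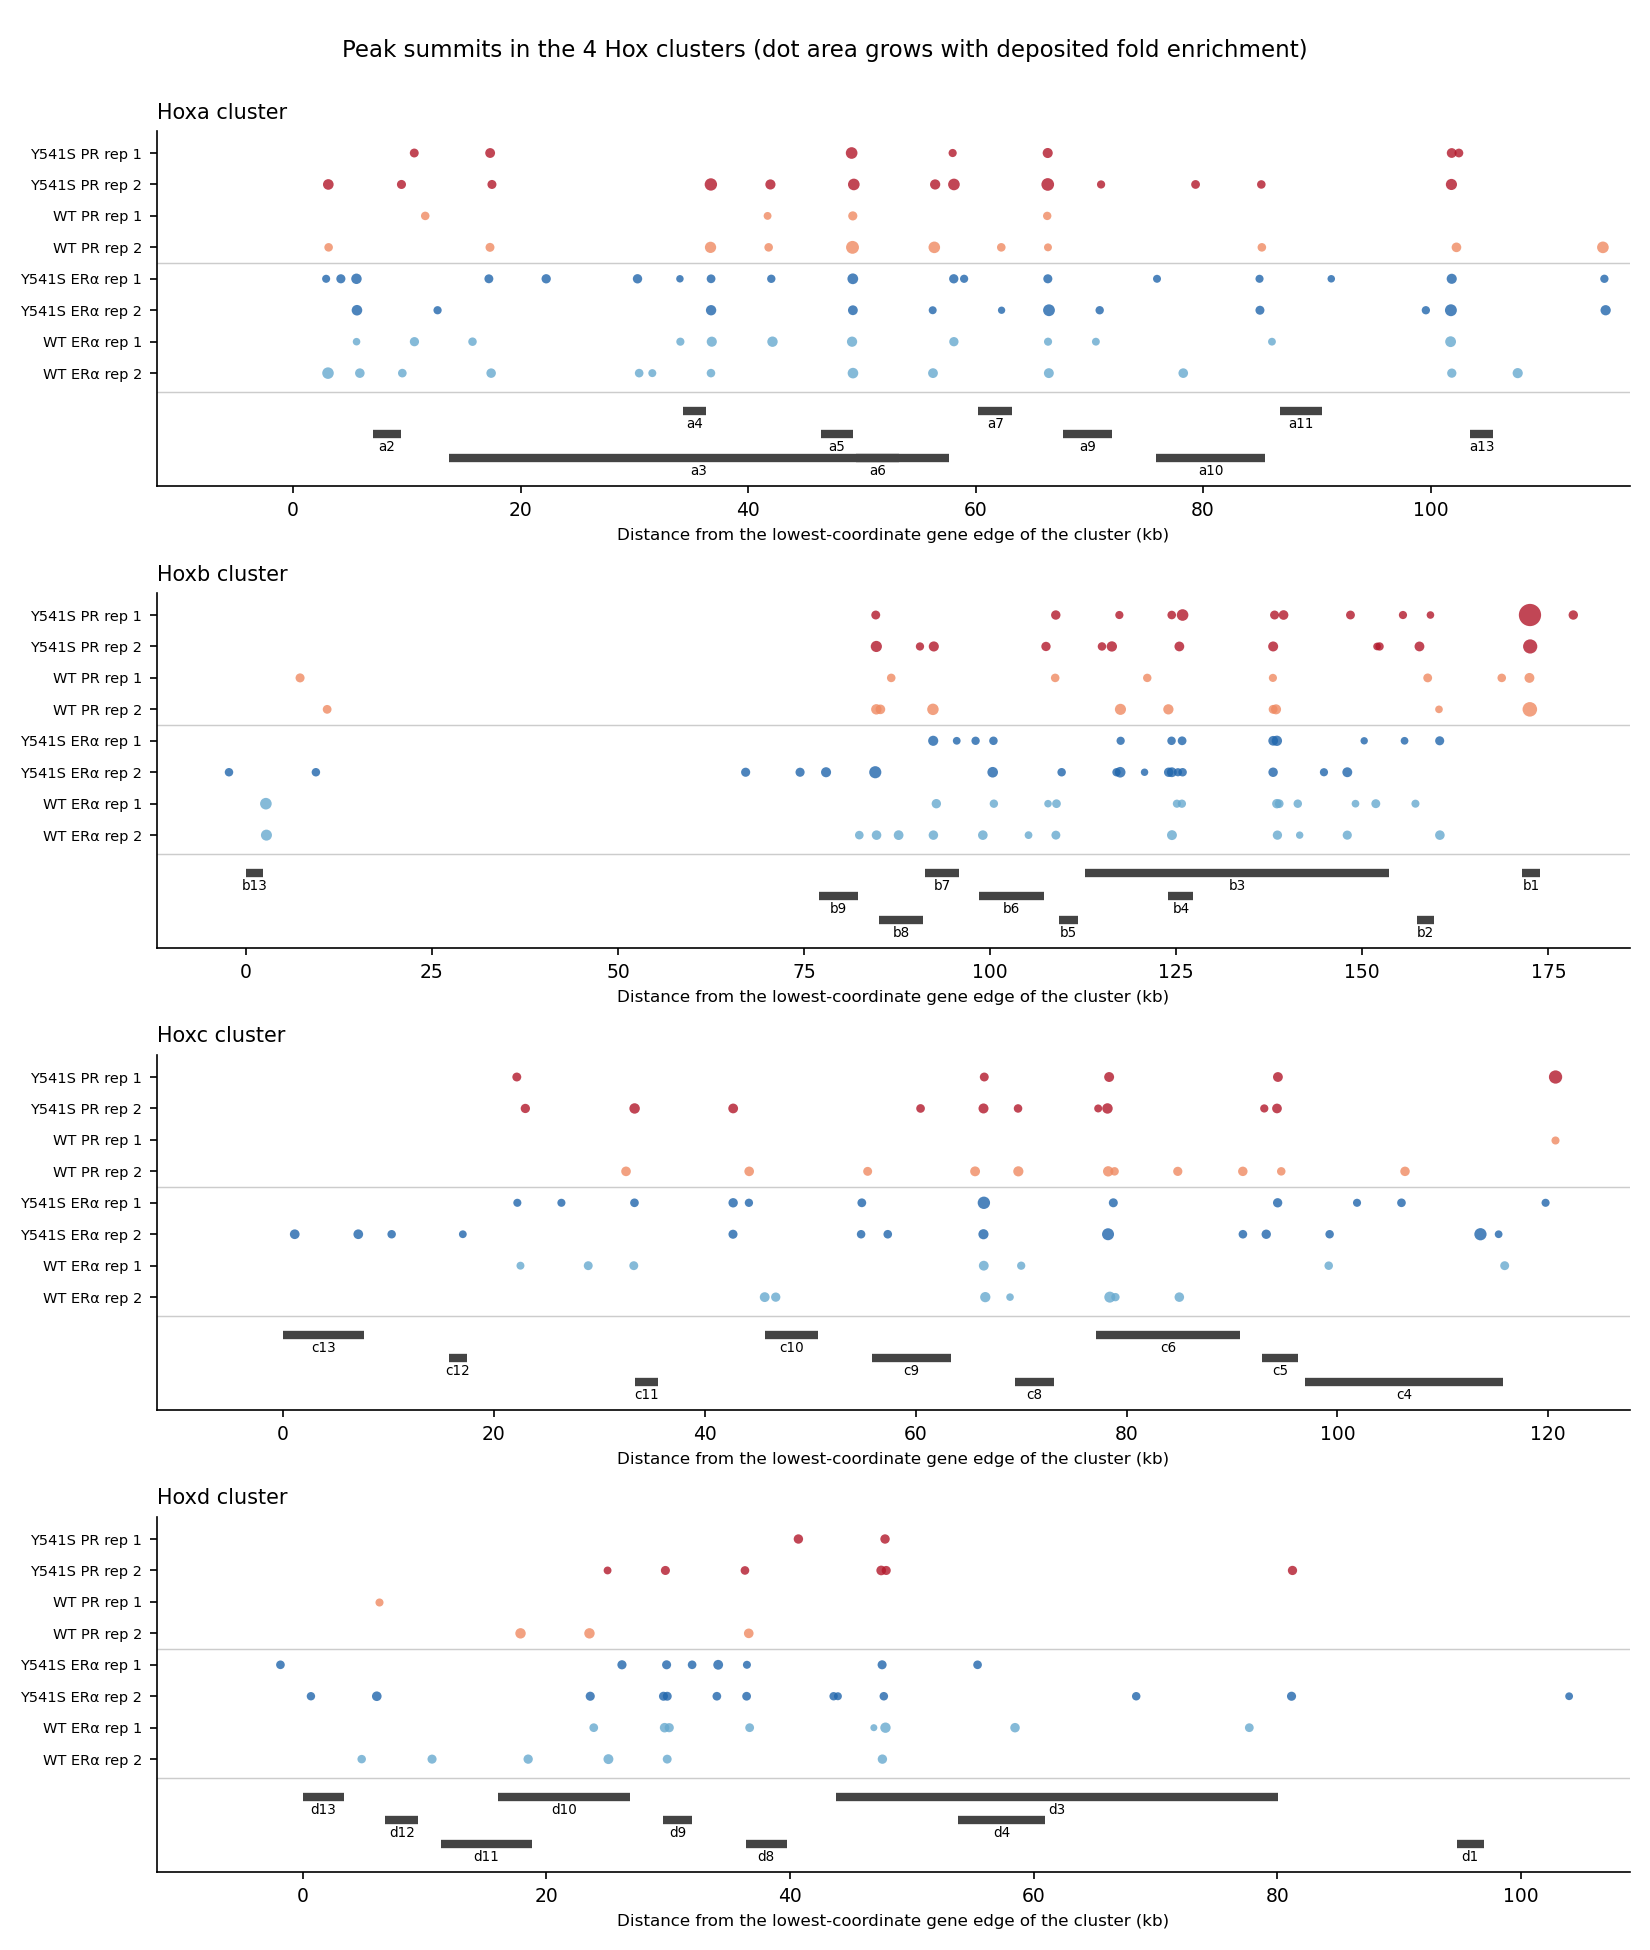
Peak summits of the 8 libraries across the 4 clusters, by distance in kb from the lowest-coordinate gene edge of each cluster; rows are libraries and dark bars at the foot of each panel are the spans of the members drawn (a5 is Hoxa5). Dot area grows with the deposited fold enrichment, and the largest dot is the PR peak inside Hoxb1 in Y541S replicate 1.

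For each receptor separately, overlapping peaks were joined across its 4 libraries to ask which places were shared and which were found in 1 genotype. Places called in the Y541S replicates 1 and 2 but not in WT were termed Y541S-only, and the opposite pattern WT-only. Regions are not replicates, and these counts carry no test. Of 78 PR regions in the Hox windows, 6 were Y541S-only (7.69%, beside 6.92% of all PR regions) and 0 WT-only (beside 0.558%). A count of 0 of 78 allows a share of up to 3.85%. A PR peak in all 4 libraries was found at 4 of the 78 (5.13%, 95% Wilson interval 2.01 to 12.5%, which covers counting error only), beside 19.8% of all PR regions. A peak in 1 library only was found at 53 (67.9%, beside 53.2%), in both Y541S libraries at 13 (16.7%, beside 36.6%) and in both WT libraries at 5 (6.41%, beside 22.3%). The Hox shares of PR regions shared by both libraries of a genotype or by all 4 were below those of all PR regions, and this was not tested.

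Of 121 ERα regions in the Hox windows, 7 were Y541S-only (5.79%, beside 4.48% of all ERα regions) and 3 WT-only (2.48%, beside 0.63%). An ERα peak in all 4 libraries was found at 8 (6.61%, Wilson interval 3.39 to 12.5%, beside 8.92%). A peak in 1 library only was found at 81 (66.9%, beside 71%), in both Y541S libraries at 20 (16.5%, beside 19.3%) and in both WT libraries at 12 (9.92%, beside 11.2%). The ERα shares were near those of all regions, apart from the 3 WT-only regions, which numbered 2 when summits within 200 bp were merged instead.

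By gene, 37 of the 39 members had a PR peak in at least 1 library within 10 kb of their span (beside 83.4% of all coding genes) and 38 had an ERα peak (beside 84.6%). A Y541S-only PR region lay within 10 kb of 16 members (beside 29.8%), a WT-only one near 0 (beside 4.29%) and one in all 4 libraries near 8 (beside 63.6%). A Y541S-only ERα region lay near 13 members (beside 25.5%), a WT-only one near 4 (beside 5.49%) and one in all 4 libraries near 17 (beside 57.5%). Windows of neighbouring members overlap, and the long spans of Hoxa3, Hoxb3 and Hoxd3 contain Hoxa4 to Hoxa6, Hoxb4 and Hoxd4, so 1 region can count for several genes. Of the members, 6 had both a PR and an ERα region in all 4 libraries, and 20 had neither.

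The strongest single PR peak of the clusters lay inside Hoxb1, an anterior gene of hindbrain patterning (chr11:96366517-96367057). Its fold was 16.9 and 7.24 in Y541S glands, against 3.81 and 7.55 in WT glands. Replicate 1 of Y541S stood far above the other 3 libraries, and the remaining values of the genotypes overlapped. Summit coverage was 73 and 16 reads in Y541S glands, against 13 and 15 in WT glands, and −log10 p was 69.8 and 12.9 in Y541S glands, against 6.03 and 12.99 in WT glands. No ERα library had a peak within 10 kb of Hoxb1, and it was the only member without one. The closest other Hoxb gene, Hoxb2, had PR and ERα peaks within 10 kb.

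The other PR region in all 4 libraries outside Hoxa lay inside Hoxb3 (chr11:96331936-96332608), a gene of pharyngeal and hindbrain patterning. Its PR fold was 3.23 and 3.87 in Y541S glands, against 2.76 and 3.17 in WT glands. Both Y541S values exceeded both WT values by a small margin, as at 2 of the 4 PR regions in all 4 libraries, beside 53.3% of all such regions (the reverse at 0 of 4, beside 0.91%). At the same place ERα had a peak in both Y541S libraries, with a fold of 3.70 and 3.52, and in no WT library. A neighbouring ERα region in Hoxb3 (chr11:96332685-96333013) held a peak in Y541S replicate 1, with a fold of 4.09, and in both WT libraries, with 3.501 and 3.42.

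Of the 8 regions with an ERα peak in all 4 libraries, 7 overlapped a PR peak of some library, and 5 lay in Hoxa. The share with a PR peak (87.5%) was near that of all ERα regions in all 4 libraries (91.7%). Beside Hoxa4, inside the long Hoxa3 span (chr6:52191973-52192500), the ERα fold was 3.11 and 4.10 in Y541S glands, against 3.95 and 2.98 in WT glands. Inside Hoxd9, another of the mammary paralogs (chr2:74697694-74698471), it was 3.28 and 3.26 in Y541S glands, against 3.58 and 3.18 in WT glands. Neither of these separated the genotypes.

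At 3 places ERα had a peak in all 4 libraries while PR had a Y541S-only peak. The first lay 1.7 kb from Hoxa13, a gene of limb and genital development (chr6:52257006-52257518). PR had a fold of 3.74 and 4.67 there in Y541S glands, and ERα had 3.95 and 5.25 in Y541S glands and 4.43 and 3.40 in WT glands. A separate PR region directly beside it (chr6:52257589-52258036) held a peak in Y541S replicate 1, with a fold of 3.125, and in WT replicate 2, with 3.63. The Y541S-only class of the Hoxa13 place therefore depends on where 1 region ends. The next lay 2.94 kb from Hoxc8, which acts in the placement of the mammary buds along the flank (chr15:102987266-102987916). PR had a fold of 3.19 and 3.88 there in Y541S glands, and ERα had 5.63 and 3.98 in Y541S glands and 3.76 and 4.04 in WT glands. The last lay inside Hoxd3, a gene of axial patterning (chr2:74715654-74716283 for PR). PR had a fold of 3.48 and 3.67 there in Y541S glands, and ERα had 3.28 and 2.98 in Y541S glands and 4.12 and 3.47 in WT glands. Of the 8 Hox ERα regions in all 4 libraries, both WT folds exceeded both Y541S folds at 1 (beside 5.77% of all such regions), and the reverse held at 1 (beside 32.5%). All 3 PR peaks were weak, at 51.5% to 87.2% of their lists, and PR signal below the threshold in WT glands was not measured.

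The other Y541S-only PR regions lay 0.402 kb from Hoxa3, inside Hoxb3 near Hoxb4 (a regulator of blood stem cells) and inside Hoxc5. Their PR folds in Y541S glands were 2.78 and 5.05 at Hoxa3, 5.02 and 3.74 near Hoxb4 and 3.76 and 3.68 at Hoxc5. Just beyond the Hoxc5 region, WT replicate 2 had a separate PR peak (chr15:103015709-103015908) with a fold of 2.96. All 6 Y541S-only PR regions overlapped an ERα peak of at least 1 library, beside 46.6% of the 13325 such regions of the genome. An overlap with a peak in all 4 ERα libraries was found at the 3 regions above (50%), beside 4.33% of all Y541S-only PR regions. Of all 78 PR regions in the Hox windows, 49 overlapped an ERα peak (62.8%), and 7 one in all 4 ERα libraries (8.97%). The 6 Y541S-only regions lie in windows dense in ERα peaks, and no test was made.

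The 7 Y541S-only ERα regions were spread over the 4 clusters, with 2 each in Hoxa, Hoxb and Hoxc and 1 in Hoxd. In Hoxa, one lay inside Hoxa10, a gene of uterine function, and one lay 9.88 kb from Hoxa13. The fold at Hoxa10 was 2.74 and 3.24 in Y541S glands. The 2 in Hoxb both lay inside the Hoxb3 span. In Hoxc, one lay 2.98 kb from Hoxc10, which acts in lumbar patterning, and one 1.009 kb from Hoxc9, with a fold of 3.12 and 2.97 in Y541S glands. The one in Hoxd lay 2.12 kb from Hoxd9, with a fold of 3.75 and 3.06 in Y541S glands. A PR peak of some library overlapped 5 of the 7, beside 67.3% of all Y541S-only ERα regions. The regions near Hoxc9 and Hoxd9 overlapped none.

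The 3 WT-only ERα regions all lay in Hoxb. The strongest lay 0.401 kb from Hoxb13, a gene of prostate development (chr11:96196823-96197196). Its fold was 5.02 and 4.57 in WT glands, with 16 and 10 reads at the summit, and there was no PR peak in any library. The next lay 0.28 kb from Hoxb5, with a fold of 3.08 and 3.20 in WT glands, and overlapped PR peaks of 2 libraries. The weakest lay inside Hoxb3, with a fold of 2.94 and 2.38 in WT glands, and its peak in replicate 2 stood at 99.5% of the list. The peaks of the WT replicates met there only at base 96335793, with summits at 96335651 and 96335907.

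**Figure D5:**
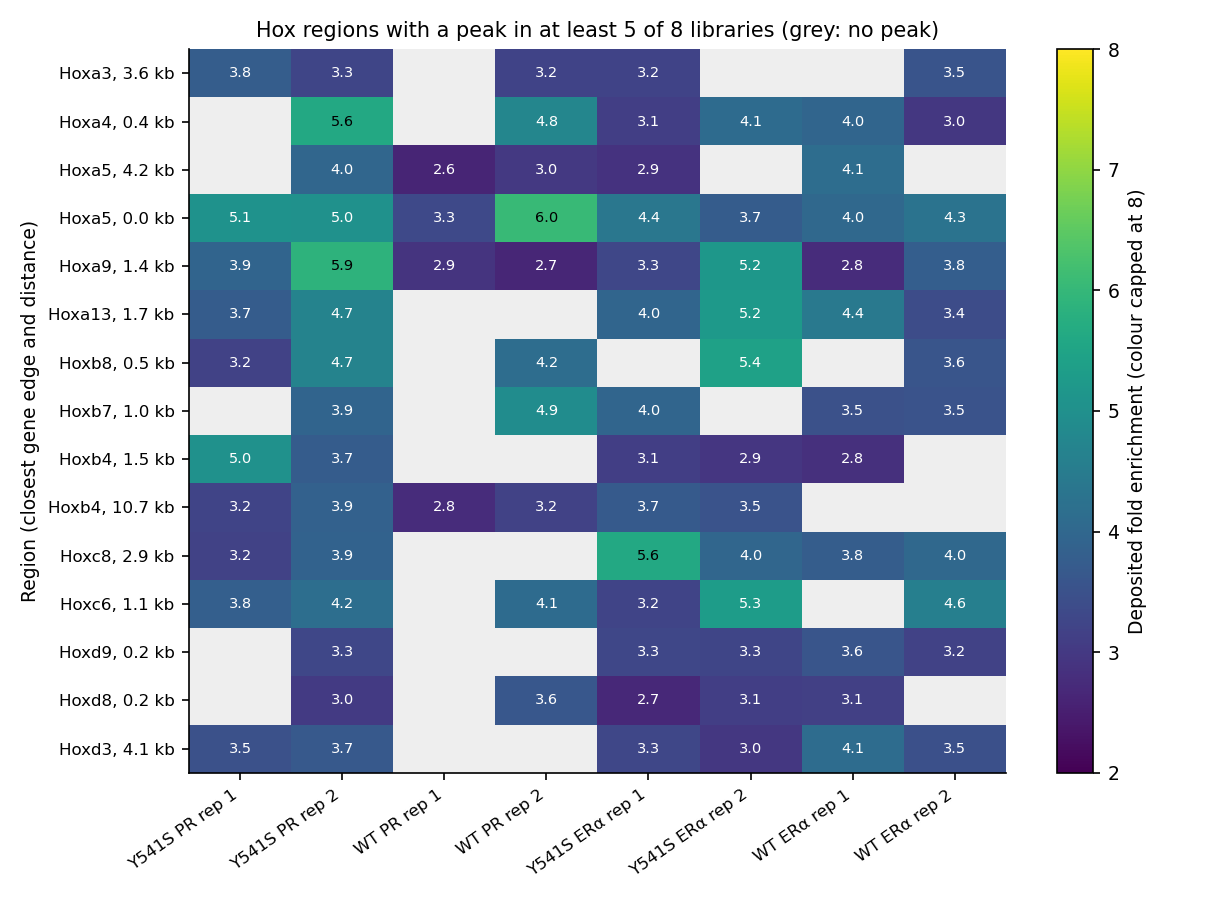
Deposited fold enrichment in each of the 8 libraries (columns) at the 15 Hox regions with a peak in at least 5 libraries (rows, named by the closest gene edge and the distance to it in kb). Grey cells have no peak; the Hoxa5 and Hoxa9 rows are filled in all 8 libraries, and the column of WT PR replicate 1 has the most gaps.

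Several members at the ends of the clusters had few peaks or none. Hoxd1, which acts in sensory neurons of the mouse, had no PR peak and 1 ERα peak, in Y541S replicate 2. Hoxc13, a gene of hair and nail formation, had no PR peak and 4 ERα peaks, all in Y541S replicate 2. Hoxd13, which acts in the digits, had 0 and 0 PR peaks in Y541S glands and 1 and 0 in WT glands, and 1 and 2 ERα peaks in Y541S glands and 0 and 2 in WT glands. Hoxb13 had 0 and 0 PR peaks in Y541S glands and 1 and 1 in WT glands, and 0 and 2 ERα peaks in Y541S glands and 1 and 1 in WT glands. At the other extreme, Hoxa3, the longest member at 44.009 kb, had 5 and 8 PR peaks in Y541S glands and 4 and 7 in WT glands. It had 12 and 7 ERα peaks in Y541S glands and 9 and 9 in WT glands. Hoxb3 had 9 and 8 PR peaks in Y541S glands and 4 and 5 in WT glands, and 8 and 11 ERα peaks in Y541S glands and 10 and 7 in WT glands. The PR counts of Hoxb3 did not overlap between genotypes, whereas its ERα counts did. Both Y541S counts of PR exceeded both WT counts at 7 of the 39 members, beside 16.1% of coding genes, and the reverse held at 2, beside 3.43%. For ERα it was 8 members, beside 24.4%, and the reverse held at 0, beside 2.07%. Both Y541S lists of each receptor were longer than both WT lists.

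The remaining members had totals in between, summed here over the 4 libraries of a receptor within 10 kb. Of the Hoxa genes, Hoxa4 had 5 PR peaks and 11 ERα peaks, Hoxa5 had 13 and 15, Hoxa6 12 and 12 and Hoxa9 9 and 12. Hoxa2, Hoxa7 and Hoxa10 had 8 to 10 PR peaks and 12 or 13 ERα peaks. Hoxa11, a uterine and limb gene, had 3 and 6, and Hoxa13 had 5 and 8. Of the Hoxb genes, Hoxb1 had 6 PR peaks and 0 ERα peaks, Hoxb2 had 9 and 9, Hoxb4 9 and 13 and Hoxb5 8 and 12. Hoxb6, Hoxb7 and Hoxb8 had 8 PR peaks each and 14 or 15 ERα peaks, and Hoxb9, a mammary paralog, had 6 and 7. In Hoxc, PR exceeded ERα at Hoxc6, with 13 against 12 peaks, and at Hoxc8, with 11 against 10. Hoxc4 had 8 PR and 11 ERα peaks, Hoxc5 had 6 and 8, Hoxc9 7 and 10 and Hoxc10 4 and 8. Toward the posterior end of that cluster Hoxc11 had 4 PR and 7 ERα peaks and Hoxc12 had 2 and 6. In Hoxd, the long Hoxd3 had 7 PR and 17 ERα peaks, and Hoxd4 within it had 3 and 9. Hoxd8, Hoxd9 and Hoxd10 had 6 or 7 PR peaks and 16 to 19 ERα peaks, and Hoxd11 and Hoxd12 had 4 and 2 PR peaks and 8 and 6 ERα peaks.

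ERα and PR peaks of the same genotype and replicate number coincided at 30.0% and 35.1% of the ERα Hox peaks in Y541S glands (15 of 50 and 20 of 57) and at 7.5% and 35.9% in WT glands (3 of 40 and 14 of 39). Over the whole ERα lists the shares were 45.2% and 37.4% in Y541S glands and 36.2% and 38.9% in WT glands. The low value came from WT replicate 1, where PR had 14 Hox peaks in all. Y541S minus WT was 10.8 percentage points (exact permutation p = 1), and -0.81 with replicate 1 of both genotypes left out. Counted from PR, 57.7% and 46.3% of the Hox PR peaks in Y541S glands and 21.4% and 40.0% in WT glands met an ERα peak. Over the whole PR lists it was 41.5% and 38.0% in Y541S glands and 31.9% and 25.9% in WT glands. From this side the Hox share was the higher one except in WT replicate 1.

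Genes that act with or on Hox genes were looked at as lists. These lists were described by their counts, beside the shares of all coding genes given above. Of 9 TALE cofactor genes, 9 had a peak of each receptor, 8 had a PR region in all 4 libraries and 7 an ERα region in all 4. Y541S-only regions lay near 6 of the 9 for each receptor. Meis2, a homeodomain partner of Hox proteins, had 5 and 10 PR peaks in Y541S glands and 7 and 8 in WT glands, and 11 and 12 ERα peaks in Y541S glands and 1 and 3 in WT glands. The ERα counts of Meis2 did not overlap between genotypes (beside the 24.4% of coding genes above), while its PR counts did. Meis2 had 0 Y541S-only ERα regions, so the added peaks were not shared places of both Y541S libraries that WT lacked. It was not the only TALE gene with this order of ERα counts, and others lacked it.

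Of 17 Polycomb and trithorax genes, 15 had a PR region in all 4 libraries and 16 an ERα region in all 4, and 7 and 6 had a Y541S-only region of PR and of ERα. Of 9 matched genes that flank the clusters, 8 had a PR region in all 4 libraries and 6 an ERα region in all 4. Evx2, the homeobox gene next to Hoxd13, had no PR peak. Of 6 ParaHox and Cdx genes, the relatives of the Hox genes outside the clusters, 3 had a PR peak and 4 an ERα peak in any library. Of these 6, 1 had a PR region in all 4 libraries and 0 an ERα region in all 4. Cdx4 and Pdx1 had no peak of either receptor.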

How the data were processed

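The analysis started from the peak lists of 8 libraries, each called on a library of its own. Coordinates are in mm10, the build named in the submitters' processing notes. Which aligner and which peak caller were run, and whether input DNA served as control, is not given in the sources used here. The authors deposited for each peak a whole-number score, a fold enrichment (a ratio to local expectation), a −log10 p, a −log10 q and the offset of its summit. Since none of these is scaled between libraries, they were used to rank and filter peaks of the same list. Whole-number coverage at each summit and its expectation were recovered from the deposited fold and −log10 p with a tolerance of 1e-04 on −log10 p, for at least 99.9956% of the peaks of a list, and the 0.001 quantile of the expectation was taken as background coverage.

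Groups came from the titles of the samples. Gene spans came from a RefSeq table of GRCm38.p6. Peaks were merged into regions at an overlap of at least 1 bp. Library values were compared by two-sided exact permutation tests, which cannot go below p = 0.333 within 1 receptor, 0.0556 over both or 0.00781 for a pair of clusters. Wilson intervals and limits from a count of 0 (3 counts) cover counting error only. Members and lists were chosen with earlier results of these data known. Of the flanking genes, 9 of 10 matched the table. Members are accounted for by their peak totals. Regions are described singly where all 4 libraries of a receptor had a peak or where 1 genotype had it, and members without a peak are named. The single values of 1 member and 1 listed gene are not reported here. Alternatives were other windows (0 and 50 kb), −log10 q of at least 1.3, −log10 p of at least 5, the 20000 strongest peaks, counts per 100000 peaks, a replicate block and each library left out. For region classes, summits within 200 bp were also merged in place of overlapping peaks. The alternatives for the difference between receptors in the genotype effect were added after seeing the data. The steps were tested on simulated data and run in Python 3.11.15 with numpy 2.4.6, pandas 2.3.3, scipy 1.17.1 and matplotlib 3.10.9.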

Additional observations from a re-analysis of the deposited data

How the results depend on the processing

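PR minus ERα in Hox peaks stayed below 0 in all alternatives run, from -22.75 to -12.25 with single libraries left out, but it was smaller with fewer peaks counted. It was -10.75 inside spans, -10 at −log10 q of at least 1.3, -5.75 among the 20000 strongest peaks (exact permutation p = 0.111) and -4.25 when only peaks with −log10 p from 5 upward counted (exact permutation p = 0.444). The excess of Hox peaks in Y541S over WT glands did not keep its sign. Among the 20000 strongest peaks it was 0 for PR, -3.5 for ERα and -1.75 over both receptors, and per 100000 peaks it was -7.43 for ERα and -1.47 over both. With single libraries left out it ranged from -1.5 to 19.5 peaks for PR, from 10.5 to 17.5 for ERα and from 6.25 to 16.75 over both. The genotype difference of PR minus that of ERα was -5 as reported but 4 at −log10 q of at least 1.3, 6.5 at −log10 p of at least 5, 3.5 among the 20000 strongest peaks and 11.9 per 100000 peaks. The cause of these changes was not tested.

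Among cluster pairs (peaks per 100 kb), counting summits inside gene spans gave -2.66 for Hoxa minus Hoxb, and 2.15 for Hoxa minus Hoxc and 2.37 for Hoxa minus Hoxd, no longer past the threshold. A window of 50 kb gave 0.70 for Hoxb minus Hoxc, not past it, and 2.31 for Hoxc minus Hoxd, past it (adjusted exact p = 0.0234, permutation). The 20000 strongest peaks gave 0.83 for Hoxa minus Hoxc, 1.19 for Hoxa minus Hoxd, 0.26 for Hoxb minus Hoxc and 0.61 for Hoxb minus Hoxd, none past it. With single libraries left out Hoxa minus Hoxb ranged from -0.63 to 0.67, Hoxa minus Hoxc from 2.41 to 3.30, Hoxa minus Hoxd from 3.43 to 4.72, Hoxb minus Hoxc from 2.29 to 3.14 and Hoxb minus Hoxd from 3.33 to 4.06. Hoxa minus Hoxb was below 0 without replicate 1 of ERα in Y541S glands (-0.63), replicate 2 of PR in Y541S glands (-0.06) or replicate 2 of PR in WT glands (-0.04).

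Counts of regions by class depended on the threshold. For PR, Y541S-only regions numbered 3 with summits inside spans and 0 among the 20000 strongest peaks, and regions in all 4 libraries numbered 9 at 50 kb, 2 at −log10 q of at least 1.3, 1 at −log10 p of at least 5 and 0 among the 20000 strongest. For ERα, Y541S-only regions numbered 3 inside spans, 4 at the q limit, 1 at the p limit and 0 among the strongest, WT-only regions 1 inside spans and 1 at the p limit, and regions in all 4 libraries 4, 4, 2 and 0 under the same settings. Merging summits within 200 bp gave 5 Y541S-only, 0 WT-only and 4 shared PR regions. For ERα it gave 8 Y541S-only, 2 WT-only and 7 shared regions. With a library left out, a single library stands for its group. PR Y541S-only regions then ranged from 6 to 26, PR WT-only regions from 0 to 18 and PR regions in all libraries from 4 to 7. The ERα ranges were 8 to 36, 3 to 19 and 8 to 11.

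The share of ERα Hox peaks with a PR peak gave -0.81 points without replicate 1, with a range of -0.81 to 22.5. Replicate numbers were checked for pairing over 2554 bins of 1 Mb. The correlation of replicate differences between genotypes was 0.30 for ERα and -0.02 for PR, and between receptors of the same genotype 0.07 in Y541S and 0.29 in WT glands, so the numbers do not establish a pairing. With the replicate block the differences remained 9 peaks for PR, 14 for ERα, 11.5 over both and -17.5 between receptors, and the exact permutation p-values became 0.5, 0.5, 0.125 and 0.125, the smallest that the block allows. The share gave 10.8 points with the block (exact permutation p = 1).

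Precision is limited by 2 libraries per group and by the few reads at most Hox summits, with a median of 7 to 13 per library. A region without a peak can hold signal below the threshold of its list.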
